A study of Mus musculus with 4 samples.

Results

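The clustered histone genes are the genes on the array whose names start with Hist1, Hist2, Hist3 or Hist4, and they were taken by name alone, with 1 value per gene from its brightest probe. They came to 49 of the 30174 gene names on the array, measured by 55 of its 39429 probes: 6 H1, 14 H2A, 12 H2B, 8 H3 and 9 H4 genes. By cluster, 36 belonged to Hist1, 9 to Hist2, 3 to Hist3 and 1 to Hist4. RNA came from NIH-3T3:Per2-Luc cells, a mouse embryonic fibroblast line that carries a luciferase reporter driven by the Per2 promoter, grown to confluence. The control received 0 mM H2O2 (medium exchanged for fresh medium) and was labelled 4 h, and the other cultures were taken 4 h, 20 h and 32 h after the cOS-pulse, a 10 min exposure to 5 mM H2O2. Each of the 4 conditions was 1 one-color array, all 4 on 1 slide, so there was no replicate, no test was possible and no difference has a replicate check. All 3 time points were set against the same control array. At 20 h and 32 h, the pulse and the further hours in culture therefore cannot be told apart.

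Histones package DNA: H2A, H2B, H3 and H4 form the core of the nucleosome, and H1 binds the linker between nucleosomes. The clustered genes are mostly intronless, are transcribed mainly in S phase, and mostly give mRNAs that end in a stem-loop bound by SLBP instead of a poly(A) tail. Some of them can also give polyadenylated mRNAs that run past the stem-loop, known from cells that have stopped dividing. The labels name a Low Input Quick-Amp labelling kit and not its primer. Kits of this kind are commonly primed from poly(A). Fewer transcripts per cell, fewer cells with them and a changed share of polyadenylated ones cannot be told apart from these signals.

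Of the 14 H2A probes used, each 60 bases long, 6 end exactly at the stop codon, and they are shown because their likeness makes the values of single H2A genes uncertain. Capitals mark the stop codon.
Hist1h2af: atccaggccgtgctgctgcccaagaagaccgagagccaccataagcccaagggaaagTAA
Hist1h2ak: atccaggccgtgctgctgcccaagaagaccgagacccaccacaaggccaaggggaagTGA
Hist1h2an: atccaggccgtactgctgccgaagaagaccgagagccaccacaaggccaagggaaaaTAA
Hist2h2aa2: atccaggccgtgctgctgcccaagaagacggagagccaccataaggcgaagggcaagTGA
Hist1h2ah: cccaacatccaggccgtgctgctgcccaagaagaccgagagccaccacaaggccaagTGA
Hist2h2ac: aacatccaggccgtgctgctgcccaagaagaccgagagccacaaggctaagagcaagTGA
These lie in the coding exon at the end of the open reading frame, in mm9 at chr13:23626113-23626172, chr13:21845304-21845363, chr13:21878695-21878754, chr3:96049837-96049896, chr13:22127035-22127094 and chr3:96024378-96024437, in that order. Slid against each other without gaps by up to 9 bases, the 15 pairs were identical at 70.2% to 94.4% of the bases compared, with a median of 90.7%. Across the 49 genes, 14 probes listed more than 1 RefSeq transcript, up to 4. Signal of one of these 6 H2A genes may therefore come from another. The sequence of Hist2h2ac, which codes for a protein with a different C-terminal tail, was identical to the other 5 at 70.2% to 77.2%. A slide without gaps understates this likeness. Most of the Hist2h2ac sequence, from its first base on, stands unbroken in that of Hist1h2ah.

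Another 6 probes contained the 16-base histone stem-loop, and no other probe on the array did. The 5 of them that were detected are shown with up to 5 flanking bases, the stem-loop in capitals.
Hist2h2aa1: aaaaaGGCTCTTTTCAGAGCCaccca
Hist2h2bb: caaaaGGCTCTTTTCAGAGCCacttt
Hist1h3g: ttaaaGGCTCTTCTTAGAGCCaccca
Hist1h3i: caaaaGGCTCTTTTCAGAGCCccctc
Hist1h4m: ctaaaGGCCCTTTTCAGGGCCatcca
The sixth, for Hist1h3a, was well above background nowhere. Of the 49 used probes, 35 lay within a RefSeq gene model (GRCm38.p6) of at most 1 kb, 9 ended 43 to 2170 bases past the end of the model, and 5 lay in a model longer than 1 kb. The last 14 are called distal here, and 7 of them were for H2B genes. This division was made after the values had been seen. The models longer than 1 kb spanned 2667 to 37455 bases, and their exons were not examined.

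All 12 fibroblast markers, such as Col1a1 and Vim, were detected on all 4 arrays, and no muscle marker was. Of the markers of other cells, 2 of 5 epithelial, 3 of 4 endothelial, 2 of 5 leukocyte, 2 of 2 adipocyte and 1 of 3 germ cell genes were detected on at least 1 array, and their part in the results was not tested. Between 52.7% and 59.1% of all probes were well above background, most at 4 h. Of the 49 clustered histone genes, 38 were detected in the control, 43 at 4 h, 39 at 20 h and 37 at 32 h, 36 of them on all 4 arrays. The 6 detected nowhere were Hist1h1d, Hist1h2ae, Hist1h2bb, Hist3h2ba, Hist3h2bb-ps and Hist1h3a. Signals are given as log2 of the scanner signal minus the array's 75th percentile, ratios as differences of these, and errors as the scanner software's own error of the spots, which was 0.20 for most ratios and does not cover differences between cultures.

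**Figure D1:**
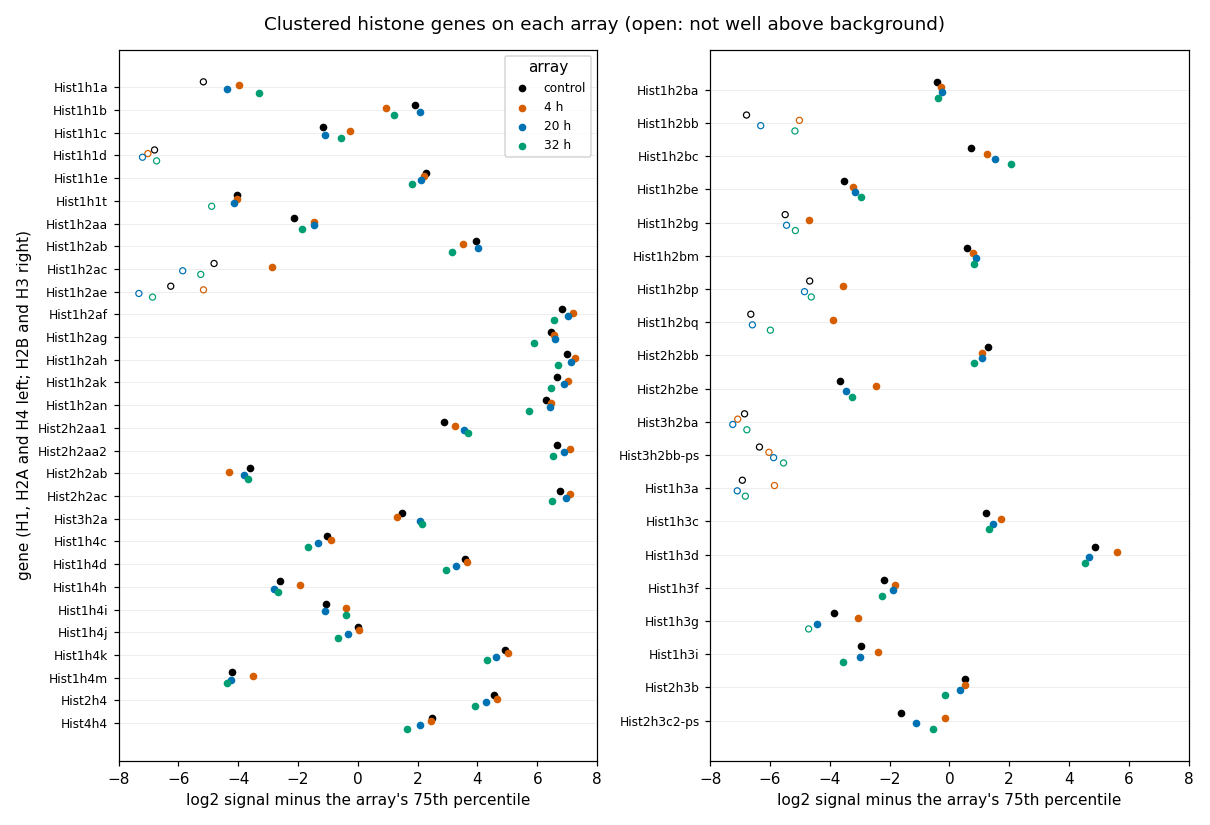
Scaled log2 signal (x axis) of each of the 49 clustered histone genes (rows) on the 4 arrays, filled where the probe was well above background and open where it was not. The 4 h array (orange) has filled points for 43 genes, the control (black) for 38.

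At 4 h after the cOS-pulse, 4 of the 43 genes with a ratio were at least 2-fold higher than the control (9.30%) and 0 were at least 2-fold lower. Over all gene names, 11.1% were at least 2-fold higher and 8.26% at least 2-fold lower. The median of the clustered histone genes was 0.33 and that of all 18505 gene names with a ratio was 0.22. Of the 43 genes, 5 were detected at 4 h and not in the control, so that they entered with a bound, and over the 38 detected on both arrays the median was 0.28. The median of all gene names moved to -0.13 with array median scaling and to -0.18 with spike-in scaling, and the median of the clustered histone genes then read -0.015 and -0.056. Relative to all gene names, they stood 0.11 higher, between 0.067 and 0.27 over the main setting and 11 alternatives. Of the 43 genes, 24 lay above the median of all gene names and 19 below.

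The highest bound at 4 h belonged to Hist1h2ac, an H2A gene of the Hist1 cluster, with a scaled log2 signal of -4.81 in the control, -2.87 at 4 h, -5.86 at 20 h and -5.26 at 32 h. It was well above background at 4 h alone, where it was at least 3.70-fold higher than the control (spot error 0.46). Its probe ended 1999 bases past the end of the gene model. Hist2h3c2-ps, an H3 gene named as a pseudogene, read -1.60, -0.13, -1.12 and -0.55 in the same order. It was 2.77-fold higher at 4 h (log2 ratio 1.47, spot error 0.21) and 2.07-fold higher at 32 h (1.05).

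Hist2h2be, an H2B gene of the Hist2 cluster, read -3.65, -2.45, -3.46 and -3.24, a 2.30-fold higher signal at 4 h (1.20, spot error 0.28). Hist1h2bp read -4.67, -3.57, -4.85 and -4.62 and was detected at 4 h alone. There it was 2.15-fold above its undetected control reading (log2 ratio 1.10, spot error 0.46). All 4 of these probes were distal. With array median, quantile or spike-in scaling, or with no scaling, 2 genes were at least 2-fold higher, and normexp background correction left 1.

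The lowest value at 4 h was that of Hist1h1b, the gene of a somatic linker histone. It read 1.91 in the control, 0.94 at 4 h, 2.06 at 20 h and 1.19 at 32 h. Its log2 ratio was -0.97 at 4 h, 0.16 at 20 h and -0.71 at 32 h, each with a spot error of 0.20. The arrays at 4 h and 32 h were low and those of the control and 20 h high.

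By family, the H3 genes had the highest median at 4 h, 0.59, with 6 of 7 measured ratios above the control by more than the spot error. The median was 0.33 for H2A, 0.30 for H2B, 0.13 for H4 and -0.019 for H1. The sign of the H3 and H2B medians held in all 11 alternatives, whereas that of H2A turned with array median, quantile and spike-in scaling, that of H4 with array median, spike-in and no scaling, and that of H1 with normexp correction. Against all gene names, the H3 median stood 0.23 to 0.56 higher over the 12 settings and the H1 median 0.11 to 0.32 lower. Between families, no difference was tested.

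**Figure D2:**
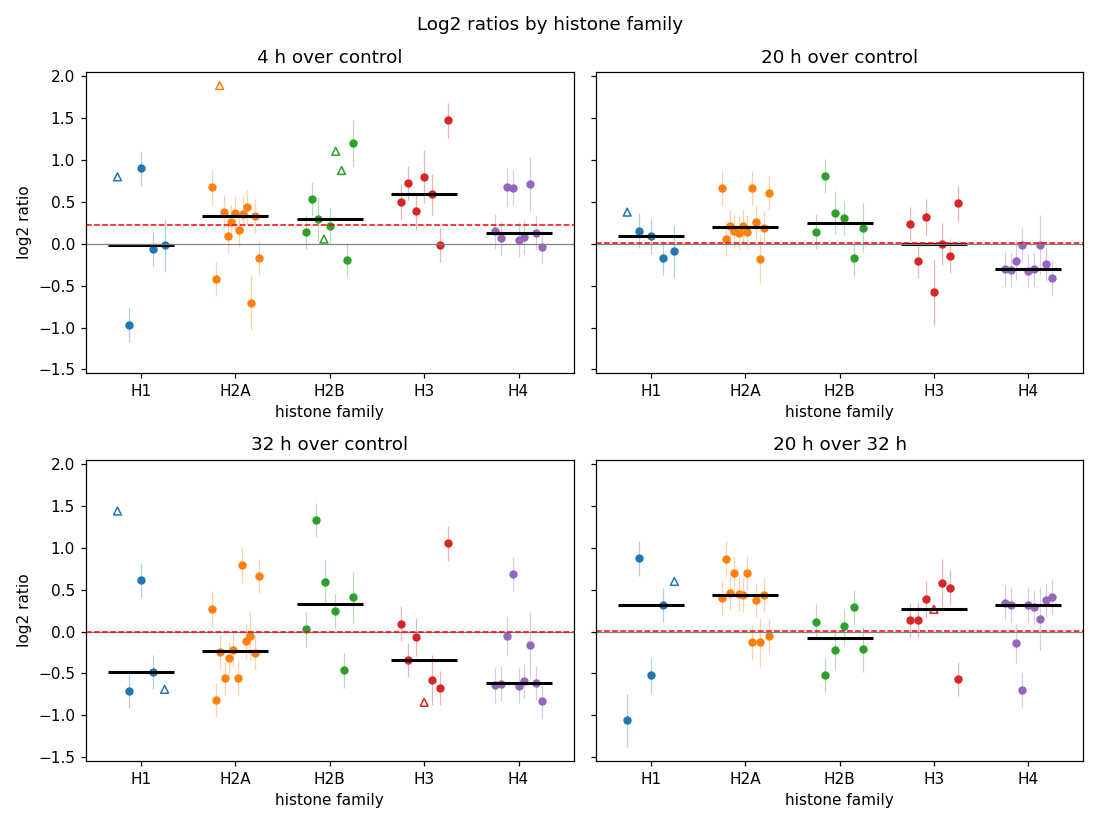
Log2 ratio (y axis) of each clustered histone gene by family (x axis) in 4 comparisons, with the spot error as a bar, the family median as a black line and the median of all gene names as a red dashed line; open triangles are bounds. At 32 h the H4 median is -0.62 and the H2B median 0.33. The latter is 0.59 over distal probes and 0.026 over the others.

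Of the H3 genes, Hist1h3d read 4.87 in the control, 5.59 at 4 h, 4.67 at 20 h and 4.52 at 32 h, and its log2 ratio was 0.72 at 4 h and -0.34 at 32 h. Hist1h3c read 1.22, 1.72, 1.46 and 1.32, highest at 4 h, but highest at 20 h with array median, spike-in and no scaling. Hist2h3b read 0.52, 0.51, 0.37 and -0.16, level with the control at 4 h and lowest at 32 h. All 3 lay within short gene models.

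The H2A probes shown above moved within a narrow range. Hist1h2ah read 7.01 in the control, 7.27 at 4 h, 7.14 at 20 h and 6.69 at 32 h. Hist1h2af read 6.82, 7.19, 7.02 and 6.57. Hist2h2ac read 6.76, 7.09, 6.95 and 6.51. All 3 were highest at 4 h and lowest at 32 h, but the higher level at 4 h turned to a lower one with spike-in and quantile scaling for each of them, also with array median scaling for Hist1h2ah and Hist2h2ac, and with no scaling for Hist1h2ah. Over the 6 H2A probes that end at the stop codon, the log2 ratio ran from 0.16 to 0.44 at 4 h, from 0.13 to 0.26 at 20 h and from -0.56 to -0.12 at 32 h. These 6 probes are much alike over long stretches, so their values may not be independent.

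At 20 h, 0 of the 39 genes with a ratio were at least 2-fold higher or lower than the control, against 1.46% and 3.56% of all gene names. The median was 0.13, beside 0.0037 over all gene names. The 9 H4 genes all lay below the control, 6 of them by more than the spot error, with a median of -0.30, which became 0.034 with no scaling. Of the 12 measured H2A genes, 11 lay above the control, 6 of them by more than the spot error. Relative to all gene names, the H4 median stood 0.13 to 0.30 lower and the H2A median 0.18 to 0.34 higher over the 12 settings.

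At 32 h, 3 of 39 genes were at least 2-fold higher (7.69%) and 0 at least 2-fold lower, against 2.24% and 2.77% of all gene names. The median of the genes was -0.25, and it was negative in all 11 alternatives, from -0.26 to -0.070, while that of all gene names was -0.0045. Of the 36 measured ratios, 19 lay below the control by more than the spot error and 10 above. The H4 median was -0.62, the H1 median -0.49, the H3 median -0.34 and the H2A median -0.23. The H2B median was 0.33, and each of these 5 signs held in all 11 alternatives. Split by probe, the H2B median was 0.59 over the 3 distal genes and 0.026 over the 3 others.

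Of the 9 H4 genes, 8 lay below the control at 32 h, with log2 ratios from -0.83 to -0.058, and Hist1h4i lay above it by 0.68. The 3 with the highest signal of the family in the control were Hist1h4k, Hist2h4 and Hist1h4d. Hist1h4k read 4.93 in the control, 5.01 at 4 h, 4.63 at 20 h and 4.33 at 32 h. Hist2h4 read 4.54, 4.67, 4.30 and 3.92. Hist1h4d read 3.58, 3.65, 3.27 and 2.96. Each was within the spot error of the control at 4 h and lowest at 32 h, with a log2 ratio of -0.60, -0.62 and -0.62 there. At 4 h each fell below the control with array median, quantile, spike-in and no scaling, as low as -0.32 for Hist1h4k, -0.28 for Hist2h4 and -0.33 for Hist1h4d. The log2 ratio of Hist4h4, the one gene of the Hist4 cluster, was -0.83 at 32 h. Those 4 probes may share signal, because H4 coding sequences are much alike and the probe of Hist1h4k listed 4 RefSeq transcripts.

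The genes at least 2-fold higher at 32 h were Hist1h1a, Hist1h2bc and Hist2h3c2-ps. The probes of Hist1h2bc and Hist2h3c2-ps were distal, and that of Hist1h1a lay within a short gene model. Hist1h2bc, an H2B gene, read 0.73 in the control, 1.26 at 4 h, 1.54 at 20 h and 2.06 at 32 h. It was 2.52-fold higher at 32 h (log2 ratio 1.33, spot error 0.20). Hist1h1a, a linker histone gene, read -5.17, -3.96, -4.38 and -3.32 and was not well above background in the control, so that it was at least 2.71-fold higher at 32 h.

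The distal probes and those within short gene models differed in their values. At 4 h the 7 distal genes detected on both arrays had a median of 0.67 and the 31 others 0.16, which fell below 0 with array median, quantile, spike-in and no scaling. Another 4 distal genes, Hist1h2ac, Hist1h2bg, Hist1h2bp and Hist1h2bq, and Hist1h1a among the others, were detected at 4 h and not in the control, so they could only enter with a higher value and were left out of these medians. At 20 h the medians over genes detected on both arrays were 0.37 and -0.0028. At 32 h all 7 distal genes lay above the control by more than the spot error, with a median of 0.66, whereas 19 of the 29 measured genes within short models lay below it and 3 above, with a median of -0.34. The distal median stood 0.51 to 0.73 above the other at 4 h, 0.35 to 0.37 at 20 h and at least 0.98 at 32 h over the main and 5 other scalings. With normexp correction, bounds included, the difference was 0.40, 0.11 and 0.88. At 20 h it was -0.0036 with no detection filter and -0.020 with the positive and significant flag. Over the 12 settings it was at least 0.40 at 4 h and at least 0.82 at 32 h. Because the division followed the values, it received no test.

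**Figure D3:**
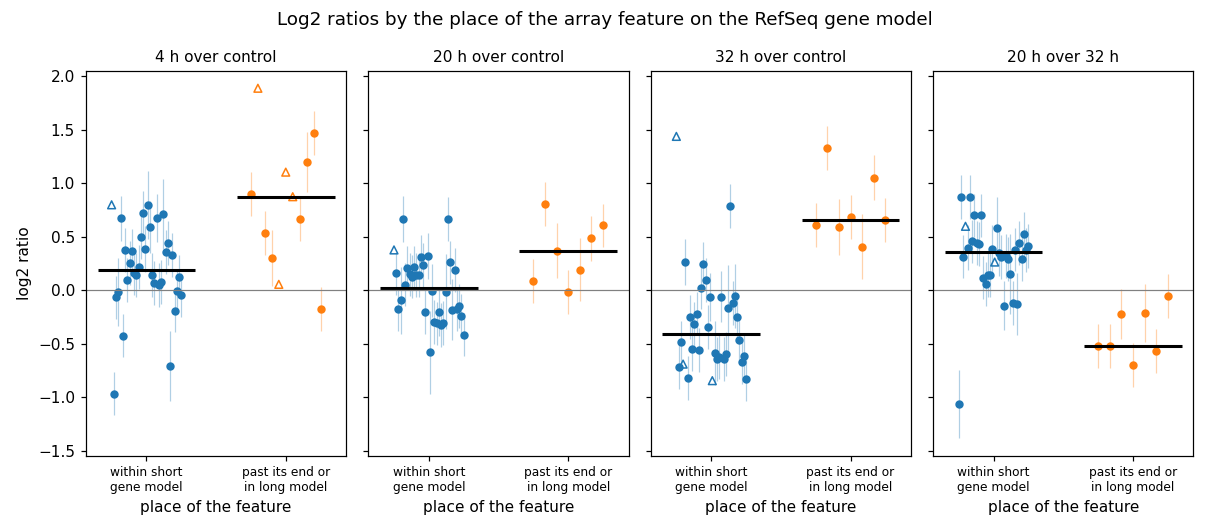
Log2 ratio (y axis) of the clustered histone genes by the place of their probe (x axis), within a RefSeq model of at most 1 kb or past its end or in a longer model, with spot errors as bars, medians as black lines and bounds as open triangles. At 32 h the 7 distal genes all lie above 0 and the median of the others, 3 bounds included, is -0.40.

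Within short models, the 8 H4 genes had a median of -0.62 at 32 h, the 6 H3 genes -0.46 and the 11 H2A genes -0.25. Outside H2B, the distal side held 1 gene with a ratio per family at 32 h, Hist1h1c at 0.61, Hist3h2a at 0.66, Hist2h3c2-ps at 1.05 and Hist1h4i at 0.68, so it has no spread there. At 4 h Hist3h2a had -0.17, below the median of 0.33 of the 11 H2A genes within short models. Hist2h2bb, whose probe contains the stem-loop, read 1.28 in the control, 1.09 at 4 h, 1.10 at 20 h and 0.81 at 32 h. Hist1h2bm read 0.59, 0.80, 0.90 and 0.84, within 0.31 of the control throughout, and its sign at 4 h turned with array median, spike-in and no scaling. The H2B median at 32 h was 0.59 over 3 distal genes and 0.026 over the 3 others.

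Of the H1 genes, Hist1h1c, whose probe ended 677 bases past its model, read -1.17, -0.27, -1.08 and -0.56. Hist1h1e, whose probe ended at the stop codon, read 2.29, 2.23, 2.12 and 1.81. The first was highest at 4 h and above the control at 32 h by 0.61, and the second was below it there by a log2 ratio of -0.49. With array median, spike-in and no scaling, Hist1h1c was highest at 32 h. Hist2h2aa1 went against the division, since its stem-loop probe read 2.89, 3.25, 3.55 and 3.67, a log2 ratio of 0.79 at 32 h. The stop-codon probe of Hist2h2aa2 had -0.12 there. In mm9 it lies at chr3:96049837-96049896, beside chr3:96049949-96050008 for the stem-loop probe. Whether both probes read the same gene copy was not tested. Hist1h1a, also within a short model, went against the division with a bound of 1.44 at 32 h.

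In 5 genes more than 1 probe was present. For Hist1h4i, the brightest probe, 231 bases past the model, had a log2 ratio of 0.68 at 32 h, and the 2 others had 0.26 and 0.26, one of them within the model. For Hist1h2ak, the stop-codon probe had -0.22 at 32 h and the other -0.72. For Hist1h4k, both probes were low at 32 h, by -0.60 and -0.65. For Hist2h4, the second probe was not detected in the control and at 20 h, and taking the median of both turned the log2 ratio of 20 h over 32 h from 0.38 to -0.28. The second probe of Hist4h4 was detected nowhere. In no gene did detected probes lie on opposite sides of the control at 4 h by more than their spot errors.

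Between the time points 20 h and 32 h 0 of 39 genes were at least 2-fold higher at 20 h and 1 was at least 2-fold lower, against 0.947% and 2.11% of all gene names. The one was Hist1h1a, 2.09-fold lower at 20 h (log2 ratio -1.06, spot error 0.32). The median was 0.31 beside 0.0074 over all gene names, and it lay between 0.14 and 0.47 in the 11 alternatives. Of the 39 genes, 28 were higher at 20 h, and 21 of the 37 measured ratios exceeded the spot error upward against 5 downward. Within short models 28 of 32 were higher at 20 h, and 0 of 7 distal genes were. The highest ratios were those of Hist1h1b (0.87) and the H2A gene Hist1h2ab (0.87), which read 3.95 in the control, 3.53 at 4 h, 4.00 at 20 h and 3.13 at 32 h.

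Of the genes known from testis, Hist1h1t read -4.04 in the control, -4.06 at 4 h, -4.13 at 20 h and -4.89 at 32 h, where it was not well above background. Hist1h2aa read -2.15, -1.48, -1.48 and -1.88. Hist1h2ba read -0.41, -0.27, -0.26 and -0.38. The log2 ratio of Hist1h2ba was 0.14, 0.14 and 0.026, inside its spot error, and Hist1h2aa was above the control at 4 h and 20 h by 0.67 and 0.66.

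H2A and H2B genes often stand head to head and share a promoter. In RefSeq, 6 pairs of the genes were less than 500 bases apart, 172 to 280 bases between the gene models. The stretches between the models are printed for the 3 pairs that hold a gene at least 2-fold changed and are at most 250 bases apart, from the strand of the H2A gene, with its start after the last base. Capitals mark the CCAAT box and the TATAAA box, both known from histone promoters, and ATTTGCAT, the octamer bound by Oct-1, on either strand. The marked boxes had 0 bases in common.
Hist1h2ac/Hist1h2bc: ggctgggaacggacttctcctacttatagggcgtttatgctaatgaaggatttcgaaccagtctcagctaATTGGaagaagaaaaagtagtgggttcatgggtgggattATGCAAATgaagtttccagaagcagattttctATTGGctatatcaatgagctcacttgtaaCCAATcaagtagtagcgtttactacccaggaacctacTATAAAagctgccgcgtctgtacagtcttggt
Hist1h2an/Hist1h2bp: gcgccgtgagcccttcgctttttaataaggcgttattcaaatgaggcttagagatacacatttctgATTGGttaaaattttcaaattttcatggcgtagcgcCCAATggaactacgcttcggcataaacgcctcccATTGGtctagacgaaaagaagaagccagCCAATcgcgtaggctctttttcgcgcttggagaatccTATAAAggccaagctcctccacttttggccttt
Hist2h2ac/Hist2h2be: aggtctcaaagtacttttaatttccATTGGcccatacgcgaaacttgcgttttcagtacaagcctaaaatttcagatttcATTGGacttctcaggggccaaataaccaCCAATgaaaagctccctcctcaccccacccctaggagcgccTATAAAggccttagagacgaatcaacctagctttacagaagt
They lie in GRCm38.p6 at chr13:23683960-23684198, chr13:21787249-21787482 and chr3:96220881-96221071, on the minus strand as printed. These pairs were chosen because a partner was at least 2-fold changed, so unlike values there followed in part from the choice. The probes of Hist1h2an and Hist2h2ac end at the stop codon, and those of their partners Hist1h2bp and Hist2h2be are distal. Signal of the former may also come from other H2A genes. For these partners, unlike transcripts and unlike probes cannot be told apart. Both probes of Hist1h2ac and Hist1h2bc are distal. At 4 h, Hist1h2ac was at least 3.70-fold higher, and Hist1h2bc had a log2 ratio of 0.53. Hist1h2an had 0.16 at 4 h and Hist1h2bp a log2 ratio of 1.10 over its undetected control reading. Hist2h2ac had 0.33 at 4 h and Hist2h2be 1.20, both had 0.19 at 20 h, and at 32 h they had -0.25 and 0.41. Of the 3 other pairs, Hist1h2aa and Hist1h2ba had 0.67 and 0.14 at 4 h, 0.66 and 0.14 at 20 h and 0.27 and 0.026 at 32 h. In the pairs of Hist1h2ae with Hist1h2bg and of Hist3h2a with Hist3h2bb-ps, a partner was detected nowhere.

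CCAAT stood in the 300-base windows (from 250 bases before to 50 after the start) of 37 of the 43 clustered histone genes with a promoter entry (86.0%), against 37.9% of 27025 promoters. TATAAA stood in 26 (60.5%, against 14.2%) and ATTTGCAT in 12 (27.9%, against 1.75%). By family, ATTTGCAT was found at 7 of 14 H2A and 5 of 9 H2B genes and at none of the 6 H1, 6 H3 and 8 H4 genes, and CCAAT at 2 of the 8 H4 genes but at all H1, H2A, H2B and H3 genes with an entry. These are matches of letters, and the windows of head-to-head partners overlap.

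The other genes of the pathway were taken from lists. Of 29 detected S phase genes, 14 were at least 2-fold lower at 4 h, with a median of -0.94, beside 8.26% of all gene names. Of the 43 clustered histone genes, 0 were at least 2-fold lower. The cyclin gene Ccna2 read 1.81 in the control, -0.93 at 4 h, 1.55 at 20 h and 1.10 at 32 h, the thymidine kinase gene Tk1 had a log2 ratio of -1.97 at 4 h and the DNA methylation cofactor gene Uhrf1 -1.96. The S phase median lay 1.11 to 1.31 below that of the clustered histone genes at 4 h over the 12 settings. Scalings by 1 constant per array can hardly change this difference. With other settings 10 to 20 S phase genes and at most 2 clustered histone genes were at least 2-fold lower. The share of all gene names was not counted under those settings. At 20 h and 32 h 0 of the 29 were at least 2-fold changed, and their medians were -0.26 and -0.45. Of all gene names, 1.46% were at least 2-fold higher and 3.56% lower at 20 h, and 2.24% and 2.77% at 32 h.

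**Figure D4:**
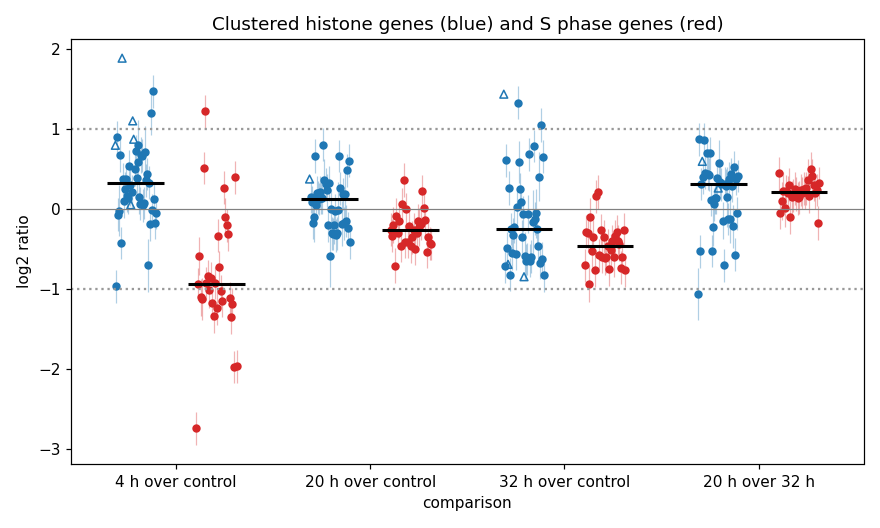
Log2 ratio (y axis) of the clustered histone genes (blue) and of 29 S phase genes (red) in 4 comparisons (x axis), with spot errors as bars, medians as black lines, bounds as open triangles and dotted lines at 2-fold. At 4 h the medians are 0.33, which turned below 0 with array median and spike-in scaling, and -0.94.

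Among 21 histone chaperone genes, 3 were at least 2-fold lower at 4 h and none higher, beside 8.26% lower and 11.1% higher of all gene names: Asf1b with a log2 ratio of -1.62, Chaf1a with -1.22 and Chaf1b with -1.03, which code for chaperones that deposit new histones behind the replication fork. The median of the list was 0.084, and it turned below 0 in all 5 other scalings. Among 13 detected histone genes outside the clusters, 2 were at least 2-fold lower at 4 h, H2afy3 with -1.67 and Cenpa, the centromeric H3 variant, with -1.41. Their median was 0.40, beside 0.22 over all gene names, and it was 0.00097 to 0.28 in the 5 other scalings. H3f3b, which codes for the replacement histone H3.3, had 0.75. Of 23 detected genes of histone transcription, 3′ end processing and decay, 0 were at least 2-fold changed at any time point. Of all gene names, 8.26% were lower and 11.1% higher at 4 h. Slbp, for the stem-loop binding protein, read -0.25 in the control, -0.55 at 4 h, -0.71 at 20 h and -0.80 at 32 h, lowest at 32 h. With array median, spike-in and no scaling, Slbp was lowest at 4 h. Npat, the coactivator of clustered histone genes, was detected nowhere.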

How the data were processed

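The authors deposited intensity values per spot from Agilent Feature Extraction 10.7.3.1, with background and spatial trend removed, and a second table that holds these intensities over 1 constant for each array. Annotation was mm9. SAM, the significance method of the paper, needs replicates and was not run. Here the log2 intensity of unflagged spots was averaged, and the 75th percentile of each array was subtracted. Per array, 125 to 161 spots carried a flag and 0 were saturated. Detection required the well-above-background flag on at least 50% of the spots of a probe. Ratios were called measured if the probe was detected on both arrays. With 1 array detecting it, a bound was taken over the lowest detected signal of the dim array, or over the dim signal if that was higher. The threshold was 2-fold. Before scaling, the 75th percentile at 4 h, 20 h and 32 h differed from the control by -0.28, 0.33 and 0.18.

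The rule for naming took members at least 2-fold changed, the 3 with the highest signal of each family in the control, testis genes, and genes of the lists that were at least 2-fold changed. Others were named after their values were seen. One result of the lists is not reported here. The members and lists were chosen with earlier results of these data known. All 49 genes were matched to RefSeq, 46 by accession and 3 by symbol, and 43 had a promoter entry. Python 3.11.15, R 4.3.3 and limma 3.58.1 were used, and the functions were checked on simulated data. The number of arrays limits the precision.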

Additional observations from a re-analysis of the deposited data

Results flagged for a closer look

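Some genes lay on opposite sides of the control at 2 time points by more than their spot errors. The difference between time points was not tested, and all time points share 1 control array. Hist1h3g had a log2 ratio of 0.80 at 4 h and -0.58 at 20 h. From 4 h to 32 h the values were 0.38 and -0.25 for Hist1h2af, 0.25 and -0.32 for Hist1h2ah, 0.37 and -0.22 for Hist1h2ak, 0.33 and -0.25 for Hist2h2ac, 0.72 and -0.34 for Hist1h3d, and 0.59 and -0.58 for Hist1h3i. At 20 h Hist1h2af had 0.21 and Hist1h2ak 0.21, against -0.25 and -0.22 at 32 h, each with a spot error of 0.20. The 9 values belong to 7 genes, 4 of them H2A genes. Of these, Hist1h2af, Hist1h2ah and Hist1h2ak have near-identical probes. The probe of Hist2h2ac shares a long stretch with those of Hist1h2af and Hist1h2ah. No gene lay below the control at an earlier and above it at a later time point by more than its spot errors. With quantile and spike-in scaling, the 4 h values of Hist1h2af, Hist1h2ah and Hist2h2ac turned negative. The other probe of Hist1h2ak had a log2 ratio of 0.042 at 4 h.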

How the results depend on the processing

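No paired analysis was possible because each condition had 1 array. Of the 4 medians of the clustered histone genes under 11 alternatives, 39 values of 44 moved by less than the spot error, as did 196 of 220 family medians and 1633 of 1818 values of named genes; the counts of genes stayed within 1.5 times in 69 of 104 cases. For genes with 1 probe detected on both arrays, much of this was fixed in advance. The detection settings and the median over probes return the same ratio, and the second deposited table nearly the same. Scalings by 1 constant per array leave differences between sets of genes nearly unchanged. For what did move, the cause was not tested. At this signal over background, 6 of the 49 genes were detected nowhere and another 7 on some arrays only, so that their values are bounds or missing there.

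At 4 h, the genes at least 2-fold higher numbered 4 in the main setting, 2 with array median, quantile, spike-in and no scaling and with probes detected on both arrays, 1 with normexp correction and with a 3-fold threshold, 9 with no detection filter and with the positive and significant flag, and 14 at 1.5-fold. Those lower numbered 2 with array median and spike-in scaling and at 1.5-fold, and 1 with quantile scaling, with no scaling and with the 75th percentile over probes detected on all arrays. At 20 h, 1 was higher with spike-in and no scaling and 4 at 1.5-fold, and 2 were lower with no detection filter and with the positive and significant flag. At 32 h, 1 was higher with normexp correction, 8 at 1.5-fold and 0 at 3-fold, and 11 were lower at 1.5-fold. For 20 h over 32 h, 2 were higher with no scaling and 5 at 1.5-fold, and 0 were lower with array median, quantile and no scaling, normexp correction and 3-fold, against 2 with no detection filter, the positive and significant flag and 1.5-fold.

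The median at 4 h was -0.015 with array median, 0.090 with quantile, -0.056 with spike-in and 0.066 with no scaling, and at 20 h it was 0.46 with no scaling. At 4 h, with array median, spike-in and no scaling, the H1 median was -0.38, -0.42 and -0.30, that of H3 0.23, 0.19 and 0.31, that of H4 -0.23, -0.28 and -0.15, and that of H2A -0.028, -0.070 and 0.052; quantile scaling gave -0.098 for H2A. The H2B median at 4 h was 0.056 with array median and 0.014 with spike-in scaling, and 0.53 with the positive and significant flag. At 20 h with no scaling the medians were 0.42, 0.53, 0.58, 0.33 and 0.034 for H1, H2A, H2B, H3 and H4. The H1 median with no detection filter was -0.21 at 32 h and -0.079 for 20 h over 32 h, where probes detected on both arrays gave -0.11.

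Of single genes at 4 h, Hist1h2ah turned to -0.11 with array median, -0.15 with quantile, -0.15 with spike-in and -0.026 with no scaling, Hist1h2af to -0.052 with quantile and -0.025 with spike-in, Hist2h2ac to -0.028, -0.098 and -0.070 with array median, quantile and spike-in, and Hist1h2bm to -0.14, -0.19 and -0.064 with array median, spike-in and no scaling. At 20 h no scaling turned Hist1h4k to 0.029, Hist2h4 to 0.093, Hist1h4d to 0.023, Asf1b to 0.036, Chaf1b to 0.11, Mcm6 to 0.032 and Ccna2 and the S phase median to 0.076. The median over probes turned Hist2h4 to -0.28 for 20 h over 32 h. The alternatives for the place of the probe and for the gene lists were chosen after seeing the data.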
